A study of Rattus norvegicus with 12 samples.

Results

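The 200 most abundant transcripts of normoxic rat lung were described across normoxia, hypobaric hypoxia and both schedules of daily reoxygenation. They are the 200 of 17254 listed transcripts with the highest mean deposited value over the 3 normoxic libraries. The values name no unit and were taken as FPKM, a read density scaled to transcript length and to library size, so levels of different transcripts can be set side by side. The members were chosen by the normoxic values themselves. Levels in normoxia are therefore a description, and comparisons with normoxia share the values that chose the members.

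Whole lungs of adult SD rats were sequenced in 12 libraries, 3 in each of 4 groups, after 2 weeks of exposure. Normoxic rats (N) were kept at 400 m. Hypoxic rats (H) were kept in a chamber at 405 mmHg, a simulated altitude of about 5000 m. C3 rats had the H exposure plus 42% oxygen for 3 h of each day without a break, and I3 rats had that oxygen for 3 h a day intermittently. The study asked whether short intermittent reoxygenation prevents the pulmonary hypertension of high altitude. Whether the 3 libraries of a group stem from different rats is not stated, and if they do not, the p-values reflect technical spread alone.

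Lung RNA is known to be dominated by a few kinds of transcript. Alveolar type 2 cells make large amounts of surfactant protein RNA, airway club cells make secretoglobins, every cell contributes ribosomal protein and mitochondrial transcripts, and blood left in the vessels adds haemoglobin RNA. Hypoxia is known to raise red cell production and to drive growth of vascular smooth muscle, and whole-tissue RNA mixes such shifts of cell content with regulation inside cells. The deposited table pairs no identifier with a gene, and 0 rows of the reference gene table carried a rat Ensembl identifier. No member was therefore given a gene name or a role, no sequence is shown, and the labelled tissue was not checked against marker genes. Members are called by their rank in normoxia and, for those described first, by their Ensembl identifier.

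In normoxia the members spanned a wide range of levels. The transcript at rank 1, ENSRNOT00000015035, stood at 7071, 5522 and 6462 FPKM in the 3 normoxic libraries, and the transcript at rank 200, ENSRNOT00000014785, at 226, 223 and 221. The lower limit of the group was not a gap. The last members, ENSRNOT00000015223 and ENSRNOT00000014785, had normoxic means of 223.4 and 223.1 FPKM. The next transcripts, just outside, were ENSRNOT00000022864 with 222.8 FPKM and ENSRNOT00000022550 with 221.98 FPKM.

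**Figure D1:**
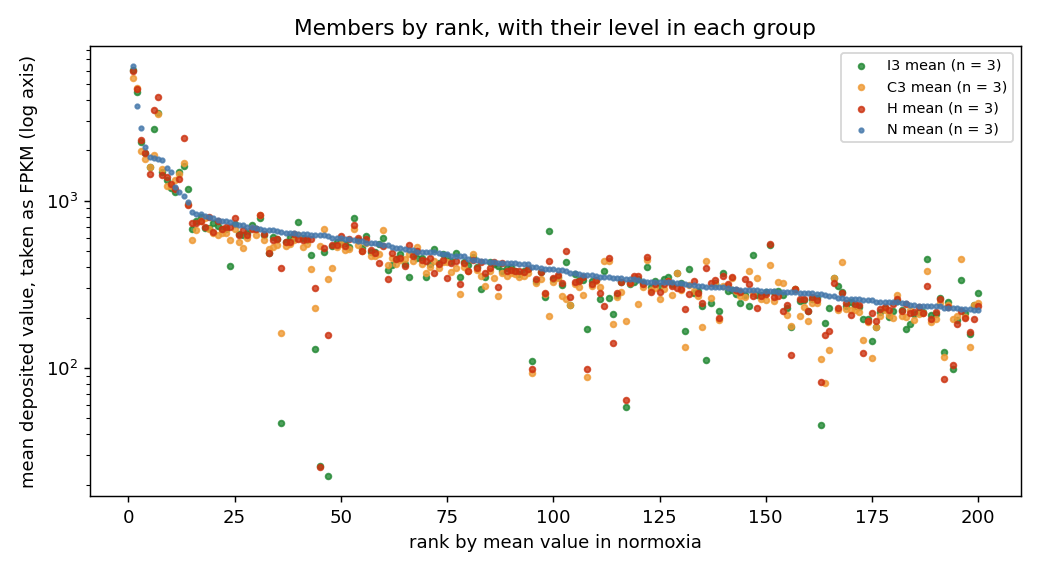
Mean level of each of the 200 members in FPKM (log axis) against its rank by normoxic mean (linear axis), with 1 point for each group of 3 libraries. Most members lay close to their normoxic level in H, C3 and I3, and a few lay far below it, such as rank 45 with a mean of 25.5 FPKM in H and 26.1 in I3.

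The members held close to the same share of every library. They summed to 31.2%, 31.7% and 30.1% of the listed values in N, and to 29.3%, 31.1% and 30.9% in H. The shares were 29.8%, 28.9% and 29.8% in C3 and 29.1%, 31.5% and 29.7% in I3. The mean share was thus 31.0% ± 0.83 for N, 30.4% ± 0.99 for H, 29.5% ± 0.52 for C3 and 30.1% ± 1.27 for I3 (SD, n = 3). The ranges of H, C3 and I3 overlapped, and that of N, where the members were chosen, lay above every C3 library. No test was made of a share summed over chosen members. The sum of all listed values ranged from 323894 to 361337 FPKM between libraries, with the highest in N replicate 2. These sums do not measure sequencing depth, which is unknown.

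Each library also had its own 200 highest transcripts, and these held between 30.2% and 32.8% of its listed values. Between 164 and 186 of the 200 members were among them, with the highest numbers in the 3 N libraries. Ranked by group means, the first 200 of H held 175 members, those of C3 172 and those of I3 173, and 163 were among the first 200 of all 4 groups. In each of the 12 single libraries, 125 members were among the first 200.

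The share of the 10 highest members ranged more widely, for its size, than that of the whole set. Their share was 8.71%, 6.36% and 6.70% for N, whereas H had 7.40%, 8.68% and 8.70%. C3 libraries had 7.30%, 6.95% and 8.28%, while those of I3 had 6.19%, 8.90% and 8.48%. Averaged by group this was 7.26% ± 1.27 for N, 8.26% ± 0.74 for H, 7.51% ± 0.69 for C3 and 7.85% ± 1.46 for I3 (SD, n = 3). All groups overlapped. The first 50 members held between 13.8% and 17.03% of a library and the first 100 between 20.7% and 23.6%.

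**Figure D2:**
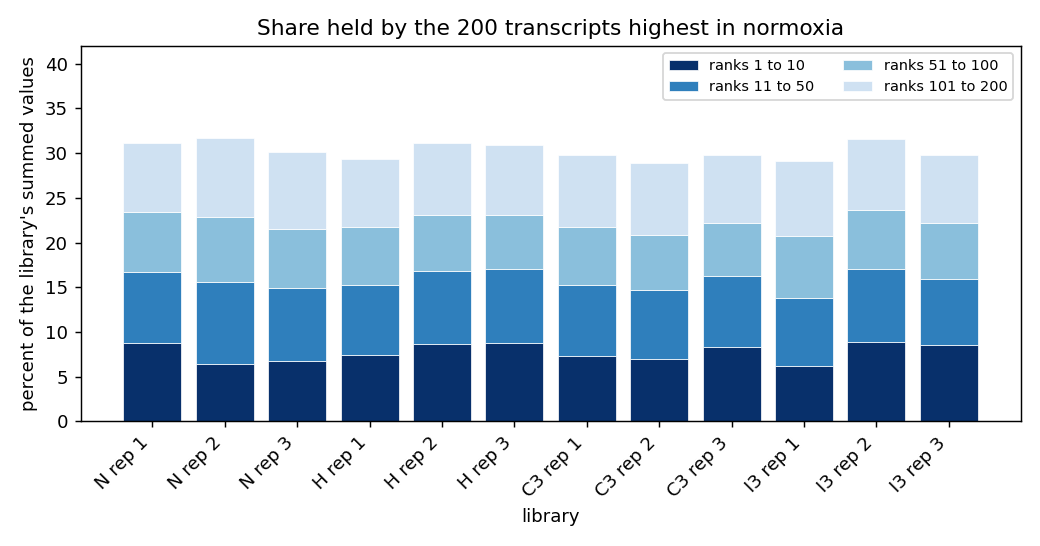
Share of each library's summed values, in percent, held by the 200 members, stacked by their rank in normoxia, with 1 bar for each of the 12 libraries. The full bars lie between 28.9% and 31.7%, while the darkest part, ranks 1 to 10, ranges from 6.19% to 8.90%.

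The 5 highest members differed in how steady they were. ENSRNOT00000015035, at rank 1, stood at 6260, 6722 and 4889 FPKM in H, at 5846, 4547 and 5884 in C3, and at 6111, 6402.5 and 5737 in I3. These values overlapped in part with those of N, and this transcript alone made up between 1.40% and 2.09% of a library.

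ENSRNOT00000027342, at rank 2, was the least steady of the 5. It stood at 5463, 3845 and 1716 FPKM in N and 2975, 5295 and 5617 in H, against 5322, 4405 and 4332 in C3 and 1711, 4848 and 6796 in I3. Its lowest values, in N replicate 3 and I3 replicate 1, lay near each other, and all groups overlapped.

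ENSRNOT00000047870, at rank 3, separated all hypoxic libraries from normoxia. It stood at 2807, 2694 and 2693 FPKM in N and 2215, 2289 and 2445 in H, against 2034, 1869.6 and 2010.1 in C3 and 2034, 2316 and 2334 in I3. The 9 hypoxic libraries lay below all 3 normoxic ones, and all C3 libraries lay below all H libraries. Its log2 change from N was -0.24 in H, -0.47 in C3 and -0.30 in I3, each with an SE of 0.09. None fell below an adjusted p of 0.05 in limma (0.416, 0.0505 and 0.310), and the N values used also chose the members. Between C3 and H the log2 change was -0.23 ± 0.09 (SE), with an adjusted p of 0.712 in limma.

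ENSRNOT00000042098, at rank 4, stood at 2043, 2180.5 and 2016 FPKM in N and 1816, 1883 and 2100.4 in H, against 1931, 1715 and 1712 in C3 and 1758, 1857 and 2143 in I3. The libraries of H and I3 overlapped with those of N, and the C3 libraries lay below all N libraries. ENSRNOT00000007747, at rank 5, stood at 1596, 1982 and 1897 FPKM in N and 1377, 1627 and 1338 in H, against 1906, 1502 and 1361 in C3 and 1839.6, 1499.5 and 1420.0 in I3. It overlapped between all groups.

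The transcripts at ranks 6, 7 and 13, picked out after their values were seen, had high and low libraries in common. Rank 6, ENSRNOT00000090422, stood at 2735, 1172 and 1508 FPKM in N and at 2654, 3631 and 4191 in H. It stood at 749.6, 1166 and 3689 in C3 and at 708, 4376 and 2931 in I3. In each of the 4 groups the library with its highest value was also the one with the highest value of ranks 7 and 13.

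Rank 7, ENSRNOT00000051483, stood at 3253, 514 and 1566 FPKM in N and 3237, 4119.6 and 5116 in H, against 2109, 3515 and 4290.1 in C3 and 2079, 4777 and 3206 in I3. Its mean of 4158 ± 939.9 FPKM in H (SD, n = 3) compared with 1778 ± 1382 in N, and 1 normoxic library reached above the lowest H library. Rank 13, ENSRNOT00000048977, stood at 1737, 677 and 805 FPKM in N and 1957, 2352 and 2844 in H, against 1119, 1762 and 2134 in C3 and 439, 2609 and 1795 in I3. The log2 changes in H against N were 1.02 ± 0.71, 1.57 ± 0.58 and 1.26 ± 0.60 (SE) for ranks 6, 7 and 13. Their adjusted p in limma was 0.668, 0.370 and 0.504. In C3 against N the changes were -0.19, 1.20 and 0.72, and in I3 against N 0.30, 1.20 and 0.37, with the same SEs. In a bulk tissue, more cells of a type and more RNA per cell cannot be told apart.

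The normoxic libraries did not agree equally well for all members. The ratio of the highest to the lowest N library had a median of 1.32 over the 200 members and exceeded 2-fold in 31, 5-fold in 13 and 10-fold in 4. The 3 members with the largest ratios were those at ranks 45, 164 and 47. ENSRNOT00000058029, at rank 45, stood at 925, 933 and 14.2 FPKM in N, a ratio of 65.9. ENSRNOT00000000523, at rank 164, stood at 10.5, 387 and 418 FPKM, and ENSRNOT00000045874, at rank 47, at 32.2, 949.99 and 857. A mean over 3 libraries thus placed them among the members although 1 library lay far below the limit. When the members were chosen without N replicate 1, 2 or 3, respectively 191, 190 and 192 of the 200 stayed, and 190 stayed when the normoxic median was used.

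Across all 12 libraries, 132 members stayed within a 2-fold range and 82 within 1.5-fold. The steadiest were 3 transcripts at ranks 157, 29 and 81, picked out after their values were seen. The transcript at rank 157, ENSRNOT00000026580, ranged from 275 to 315 FPKM over the 12 libraries, a ratio of 1.15. At the other end 21 members ranged over more than 5-fold and 10 over more than 10-fold. One member, at rank 44, was listed at exactly 0 in C3 replicate 2 and at 160, 800.4 and 914 FPKM in N, and a listed 0 can be a failed estimate.

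The typical spread within a group was larger in N than elsewhere. The SD of log2(FPKM + 1) between the 3 libraries of a group had a median over the members of 0.21 for N, 0.12 for H, 0.10 for C3 and 0.13 for I3. Over the 15435 transcripts tested, those with at least 1 FPKM in at least 3 libraries, it was 0.23, 0.21, 0.17 and 0.21. The next 200 transcripts in rank had 0.21, 0.17, 0.12 and 0.15. Both sets of abundant transcripts thus had smaller medians than all transcripts in all 4 groups, with the smallest difference in N. Both sets were ranked by the mean of the N values, which favours transcripts with a single high N library. Their spread in N is therefore a description, and nothing is read from its size beside the other groups.

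N replicate 2 stood apart for the members. Its values lay above a member's mean over the 12 libraries by a median of 0.30 on the log2 scale, against 0.04 over all transcripts tested. It held the highest value of all 12 libraries for 118 of the 200 members and the highest of the N libraries for 137. The other 11 libraries lay between -0.12, in C3 replicate 3, and 0.09, in N replicate 3. The values of N replicate 2 helped to choose the members, which favours high values in it. The counts of 118 and 137 were not made over all transcripts, so nothing is read from them.

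**Figure D3:**
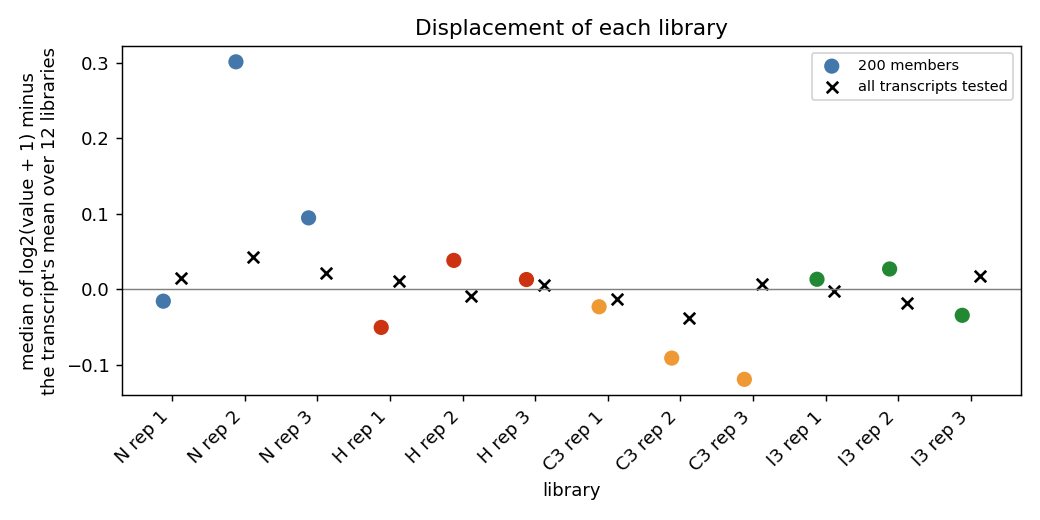
Median, for each library, of log2(FPKM + 1) less that transcript's 12-library mean, for the 200 members (circles) and for all transcripts tested (crosses). The circle of N replicate 2, at 0.30, lies far above the others, while the crosses lie between -0.04 and 0.04.

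Comparisons with normoxia are given first, as a description, because N chose the members and is shared by all 3 of them. In H, 156 of 200 members had a lower mean log2 level than in N and 44 a higher one, with a median log2 change of -0.12. In C3, 160 were lower and 40 higher with a median of -0.20, and in I3 154 were lower and 46 higher with a median of -0.11. Over all transcripts tested the medians were -0.02, -0.04 and -0.02, and 54.3%, 55.2% and 53.5% were lower. The 200 transcripts that follow in normoxic rank had medians of -0.12, -0.18 and -0.11, close to those of the members. They were ranked by the same N values, so they do not show the shift apart from that choice.

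The size of the shift moved with single N libraries. Without N replicate 2 the median change of the members was -0.04 in H, -0.11 in C3 and -0.02 in I3, and 131, 149 and 109 members were lower. Without N replicate 1 it was -0.20, -0.28 and -0.19, and 162, 161 and 156 members were lower. With the 200 transcripts highest by the mean of all 12 libraries, in which every group counts equally, 143, 146 and 140 were lower. These alternatives were chosen after the data were seen.

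No member was called different from normoxia at an adjusted p below 0.05 in limma, fitted over all transcripts. In H, 0 of 200 were called, where 0.22% of all transcripts were called higher and 0.117% lower. Unadjusted p fell below 0.05 for 3 higher and 13 lower members in H, beside 4.56% and 5.79% of all transcripts. In C3, 0 were called, where 0.486% and 0.603% of all transcripts were called higher and lower, and an unadjusted p below 0.05 was found for 3 members in the higher and 44 in the lower direction, beside 7.11% and 10.3%. In I3, 0 were called, where 0.0454% of all transcripts were called in each direction, and 4 members reached that unadjusted p as higher and 23 as lower, beside 4.49% and 6.36%. The members' own normoxic values enter these counts, so nothing is read from them.

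By the rule for named transcripts, the member of smallest p in each direction is described. Rank 151, ENSRNOT00000027073, had the smallest p among higher members both in H and in I3. It stood at 244, 351 and 272 FPKM in N and 515, 557 and 574 in H, against 532, 486 and 225 in C3 and 559, 555 and 508 in I3. All H and I3 libraries lay above all N libraries, while C3 replicate 3 lay below them. The log2 change from N was 0.94 ± 0.28 in H and 0.92 ± 0.28 in I3 (SE), with an adjusted p in limma of 0.266 and 0.289.

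Rank 156, ENSRNOT00000023926, had the smallest p among lower members in H. It stood at 388, 181 and 279 FPKM in N and 112, 105 and 142 in H, against 171, 189 and 176 in C3 and 168, 174 and 182 in I3. All H libraries lay below all others, and C3 and I3 reached only the lowest normoxic library. The log2 change was -1.18 ± 0.23 (SE) in H, and it ran from -0.92 without N replicate 1 to -1.47 without N replicate 2. In the fit of all libraries its adjusted p in limma was 0.0709.

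In C3, this was rank 168, ENSRNOT00000005746, among higher members and rank 3 among lower ones. Rank 168 stood at 267, 194 and 322 FPKM in N and 238, 329 and 275 in H, against 344, 471 and 479 in C3 and 293, 289 and 269.5 in I3. Only the C3 libraries lay above every other library. The log2 change of rank 168 in C3 was 0.74 ± 0.20 (SE), with an adjusted p of 0.111 in limma. Among lower members in I3 it was rank 176, ENSRNOT00000015958, at 217, 284 and 247 FPKM in N and at 172, 175 and 184 in I3. Its log2 change was -0.49 ± 0.12 (SE), with an adjusted p of 0.193 in limma.

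Members with all 9 hypoxic libraries on one side of all 3 normoxic ones were few. There were 11 that were lower in all 9, or 5.5% of the members, beside 2.92% of all transcripts tested. One was higher in all 9, or 0.5%, beside 1.87%. High N values chose the members, which favours lower over higher here, so nothing is read from these shares. The 11 included ranks 3, 9, 10, 33 and 95, and their log2 change over the 9 libraries ran from -0.19 to -1.27 with a median of -0.33. The largest, of rank 95, had N values of 961, 130 and 114.3 FPKM, against 89.5 to 113.4 in the 9 hypoxic libraries. N replicate 1 alone stood far apart, and the other N libraries lay near the hypoxic ones. Rank 33, ENSRNOT00000086590, stood at 727, 672 and 609 FPKM in N, and its 9 hypoxic values ran from 407.5 in H replicate 1 to 558.5 in C3 replicate 2. The one higher transcript, rank 31, ENSRNOT00000017486, stood at 715, 642 and 682 FPKM in N and 788, 844 and 836 in H, against 820.4, 818 and 817 in C3 and 779.6, 869 and 715 in I3. Its lowest hypoxic value and its highest normoxic value differed by less than 1 FPKM.

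Some transcripts outside the 200 reached the same levels in hypoxia. ENSRNOT00000015692, at rank 300 in normoxia, stood at 157.6 ± 7.12 FPKM in N and at 302 ± 32.6 in H, 308 ± 30.7 in C3 and 307 ± 47.9 in I3 (SD, n = 3), where it ranked 131, 122 and 128. ENSRNOT00000020357 stood at 165 ± 33.1 FPKM in N and 364 ± 23.2 in H, and ENSRNOT00000057386 at 164 ± 44.9 in N and 402 ± 27.997 in C3. They were picked as called by limma against N and among the 200 highest by the mean of all 12 libraries. That list held 18 transcripts outside the members, placed there by values high in the hypoxic libraries. The direction was thus fixed by the choice, and no p is given.

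**Figure D4:**
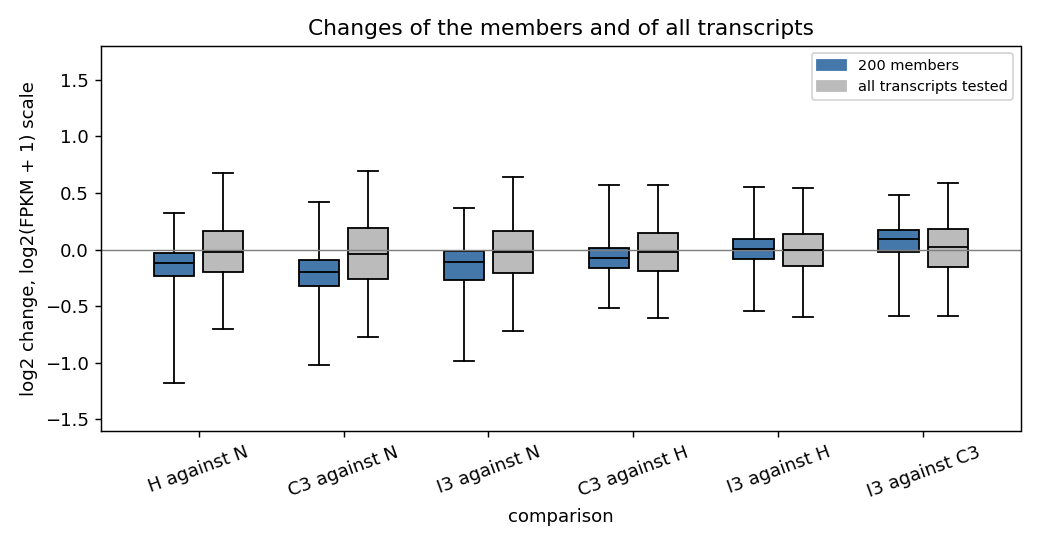
Log2 changes on the log2(FPKM + 1) scale in the 6 comparisons, for the 200 members (blue) and for all transcripts tested (grey). Boxes span the quartiles with the median as a line, and whiskers reach the 5th and 95th percentiles. The members' boxes lie below 0 in H, C3 and I3 against N, with medians of -0.12, -0.20 and -0.11, and near 0 for I3 against H.

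Comparisons among the hypoxic groups do not use the values that chose the members, except that N contributes to the pooled variance. Continuous reoxygenation was set against hypoxia alone first. In C3, 145 of 200 members had a lower mean log2 level than in H, with a median change of -0.08, beside 53.4% lower and a median of -0.02 over all transcripts. The next 200 transcripts in rank had a median of -0.07, close to that of the members. Without H replicate 2 the median of the members was -0.05 with 130 lower, and after scaling to the sum of the other transcripts it was also -0.05 with 134 lower. Without H replicate 1 it was -0.11 with 152 lower, and without C3 replicate 1 it was -0.10 with 150 lower. Limma called 0 members, where 0.00648% of all transcripts were called in each direction. At an unadjusted p below 0.05, 5 members were higher and 7 lower, beside 3.19% and 3.67% of all transcripts.

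The higher member of smallest p was rank 112, ENSRNOT00000004091. It stood at 423, 258 and 366 FPKM in N and 202.5, 272 and 234 in H, against 413, 452 and 435 in C3 and 283, 459.5 and 389.5 in I3. All C3 and I3 libraries lay above all H libraries, with a log2 change of 0.88 ± 0.21 (SE) in C3 and an adjusted p of 0.681 in limma. The lower one was rank 48, ENSRNOT00000014493, at 525, 539 and 562.5 FPKM in H and at 541, 331 and 313 in C3. One C3 library lay at the level of H and the others well below, and the log2 change was -0.50 ± 0.19 (SE) with an adjusted p of 0.712 in limma.

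Between intermittent reoxygenation and hypoxia alone the members lay on both sides of no change. In I3, 107 were higher and 93 lower than in H by mean log2 level, with a median change of 0.01, beside 50.2% lower over all transcripts. Without H replicate 1 the count of lower members was 117 and the median -0.02. It moved the other way without H replicate 2 and without I3 replicate 3, to 83 lower each, with medians of 0.03 and 0.02. Limma called 0 members, where 0.013% of all transcripts were called higher and 0.0194% lower. Unadjusted p fell below 0.05 for 5 higher and 3 lower members, beside 2.34% and 2.66%.

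The higher member of smallest p was rank 147, ENSRNOT00000006116, at 225, 266 and 320.2 FPKM in H and at 550.2, 331 and 549 in I3. The I3 libraries all lay above those of H, with a log2 change of 0.79 ± 0.24 (SE) and an adjusted p of 0.835 in limma. The lower one was rank 83, ENSRNOT00000019285, at 405, 497 and 392 FPKM in H and at 288, 280.2 and 316 in I3. Its log2 change was -0.54 ± 0.16 (SE), and limma's adjusted p was again 0.835, while its C3 libraries, at 453, 295 and 313, spanned both levels.

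The schedules were then compared with each other. In I3, 145 of 200 members had a higher mean log2 level than in C3, with a median change of 0.09. Over all transcripts 8227 of 15435 were higher, with a median of 0.02. After median ratio scaling 58 members were lower, against 55 before, and the median was 0.08. Without that scaling the next 200 transcripts in rank had a median of 0.08. Limma called 0 members, where 0% of all transcripts were called higher and 0.00648% lower. Unadjusted p fell below 0.05 for 5 higher and 2 lower members, beside 3.4% and 3.25%.

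Rank 77, ENSRNOT00000015612, was the higher member of smallest p, at 417, 404 and 368 FPKM in C3 and at 538, 453 and 473 in I3. All I3 libraries lay above all C3 libraries, with a log2 change of 0.30 ± 0.10 (SE) and an adjusted p of 0.693 in limma. The lower one was rank 45, ENSRNOT00000058029, at 647, 430.2 and 536 FPKM in C3 and at 26.8, 14.9 and 36.6 in I3. In H it stood at 21.4, 10.4 and 44.8 FPKM, so that all C3 libraries lay far above all H and I3 libraries. Its log2 change in I3 against C3 was -4.38 ± 1.32 (SE), and limma's adjusted p was 0.691. Its N libraries had 925, 933 and 14.2 FPKM, and without N replicate 3 the adjusted p was 0.0311 in limma.

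The libraries of some members fell at either of 2 levels. A member was counted as such, by a rule made after the data were seen, where its 12 sorted log2 values had a gap of at least 1, a 2-fold step, with at least 2 libraries on either side. There were 21 such members, or 10.5%, beside 10% of the next 200 transcripts in rank and 7.17% of all tested. In all 21 the step divided the libraries of at least 1 group, as it did in 1096 of the 1106 such transcripts among all tested. Their median SE in a comparison was 0.76 on the log2 scale, against 0.13 for the other members, a difference that the rule itself brings.

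Rank 196, ENSRNOT00000071664, is an example. Its 5 low libraries lay between 103 and 115 FPKM and the other 7 between 427 and 466, with nothing between. The low level held N replicates 1 and 2, H replicates 2 and 3 and I3 replicate 3. Rank 139, ENSRNOT00000019443, had 3 libraries between 54.1 and 57.9 FPKM, namely replicate 2 of H, replicate 2 of C3 and replicate 3 of I3, and 9 between 264 and 346. Rank 99, ENSRNOT00000025093, had 8 libraries between 198.7 and 246 FPKM and 4 between 716 and 974, the latter being N replicate 1, H replicate 1 and I3 replicates 1 and 2.

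Rank 108, ENSRNOT00000081355, followed the groups apart from 1 library. It stood at 344, 398 and 334 FPKM in N and 100.996, 91.6 and 101.25 in H, against 97.5, 87.5 and 80.002 in C3 and 344, 92.5 and 77.8 in I3. The single I3 replicate 1 lay at the normoxic level and every other hypoxic library at the low one. The log2 change from N was -1.86 in H, -2.01 in C3 and -1.39 in I3, each with an SE of 0.43. Limma called none of these changes in the fit of all libraries. Without I3 replicate 1 the changes were -1.86, -2.01 and -2.06 with an SE of at most 0.13. That library was picked out here for its differing value, so the smaller SE follows from the choice.

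Rank 36, ENSRNOT00000002676, stood at 812, 857 and 277 FPKM in N and 685, 459.8 and 48.1 in H, against 448, 17.9 and 21.4 in C3 and 64.3, 50.2 and 25.3 in I3. Its high level held all N libraries, 2 of H, 1 of C3 and none of I3. Of the members that differed by more than 2-fold in a comparison, the 21, picked for a 2-fold step, made up 6 of 15 for H against N, 8 of 14 for C3 against N and 5 of 10 for I3 against N. They made up 6 of 8 for C3 against H, 3 of 3 for I3 against H and 6 of 7 for I3 against C3. What gave the 2 levels was not tested.

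**Figure D5:**
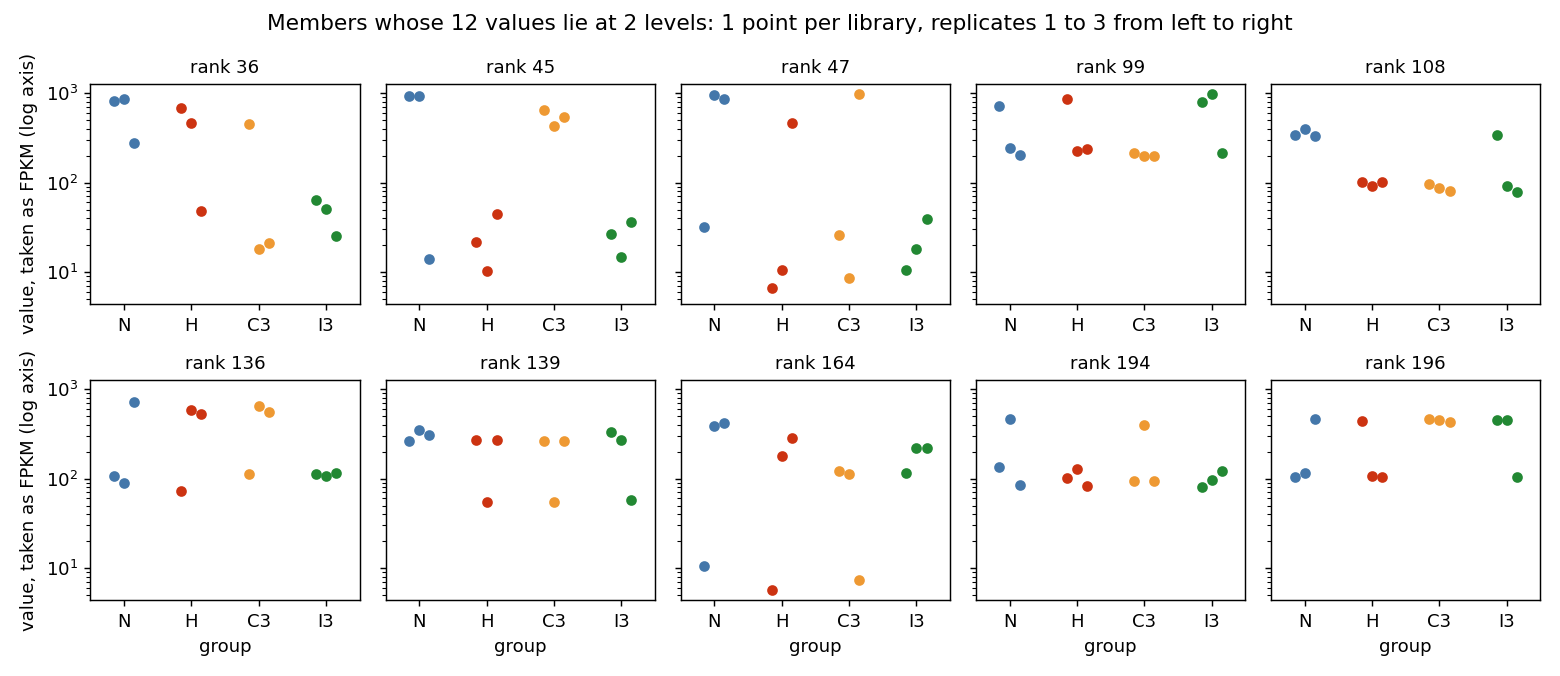
Values in FPKM (log axis) of the 10 members with a gap of at least 1.5 on the log2 scale, by group, with 1 point per library. Rank 196 has points between 103 and 115 and between 427 and 466 FPKM in N, H and I3, and rank 108 is high in every N library and in 1 I3 library only.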

How the data were processed

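RNA of whole lung was measured in 12 libraries. The authors deposited 1 table of 17254 Ensembl transcripts whose values name no unit and were taken as FPKM, since the submitters' processing notes name cutadapt, HISAT2 2.0.5 and StringTie. TPM of a filtered list cannot be told apart. Those notes name a human genome build, which does not match the rat identifiers, so the rat build used is unknown here. Libraries kept strand by dUTP, per the labels' protocols, while its use in estimation is not stated. Depth is unknown, and the precision of a value rests on 3 libraries per group.

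Sample titles gave the groups. Transcripts with at least 1 FPKM in at least 3 libraries were tested (15435, among them all 200 members). Limma 3.58.1 in R 4.3.3 fitted 1 mean per group to log2(FPKM + 1) over all 12 libraries, with 8 residual degrees of freedom and a mean-variance trend. The pseudocount makes changes of low transcripts look smaller. For each comparison, Benjamini-Hochberg adjustment of the two-sided p covered every tested transcript, with calls below 0.05. The fit was tested on simulated data. Shares were summed over listed values in pandas 2.3.3.

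Members, rules and alternatives were chosen with earlier results of these data known. Transcripts were named as the 5 highest, ranks 199 to 202, in each comparison the called members of largest change or, with none called, the member of smallest p in each direction, and the 3 with the largest ratio between N libraries. Others named were chosen after their values were seen. Gene and marker lists could not be applied without gene names. Alternatives were another pseudocount, other filters, median ratio scaling, scaling to the sum of the other transcripts, no trend, fits of 2 groups, a replicate block, other choices of members, and each library left out.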

Additional observations from a re-analysis of the deposited data

How the results depend on the processing

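With no member called in any of the 6 comparisons, counts under the alternatives could only rise. With a filter at 5 FPKM, 1 member was called in C3 against N, the transcript at rank 3. Fitting only the 2 groups compared called 1 member in H against N, 1 in C3 against N (both rank 108) and 1 in I3 against C3 (rank 45). Among the 200 highest by the mean of all 12 libraries, 2, 3 and 1 were called in H, C3 and I3 against N, none of them a member. That choice favours transcripts high in hypoxia, and each of these calls was lost with the replicate block and in the fit of 2 groups. Leaving out 1 library at a time gave between 0 and 1 called member in every comparison but I3 against H, where it gave 0. Those calls came without N replicate 2 (rank 156 in H), N replicate 3 (rank 45 in 4 comparisons), C3 replicate 1 (rank 48 in C3), C3 replicate 3 (rank 151 in H) and I3 replicate 1 (rank 108 against N in all 3). In the fit of all libraries the adjusted p of rank 108 in limma was 0.140, 0.0635 and 0.297 in H, C3 and I3, that of rank 151 in H 0.266 and that of rank 156 in H 0.0709. Calls against N use the values that chose the members, so nothing is read from them. The share held in C3 became 30.1% with members chosen by the mean of all 12 libraries, from 29.5%. Members at 2 levels numbered 10 with a gap of at least 1.5 and 6 with a gap of at least 2. The 12 named changes, picked for the smallest p in these data, kept their direction under every alternative run. A change of filter, trend, block or fitted groups, or the loss of a library outside the comparison, leaves such a change as it was. Nothing is therefore read from the kept directions.

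The labels tie no replicate number of one group to that of another. Deviations of libraries with equal numbers had correlations from -0.04 to 0.13 in 18 pairs, and the own number gave the best match for 5 of the 12. With the replicate block 0 members were called in each of the 6 comparisons. Calls over all transcripts, the background of these counts, fell under it from 168 to 25 in C3 against N and from 52 to 28 in H against N. Leaving out 1 library gave between 21 (C3 replicate 2) and 169 in C3 against N and between 17 (H replicate 3) and 58 in H against N. Without H and I3 replicates 3 together these counts were 51 and 10, and 0 members were called. Depth could not be recovered, so no counting error is given. The causes of these shifts were not tested.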
